A study of Lytechinus variegatus with 64 samples.

Results

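The lantern muscle enriched genes are 81 of the 25887 genes counted in adult tissues, eggs and gonads of the sea urchin Lytechinus variegatus. They were chosen from the measured levels themselves. A gene was kept when its mean over the 4 lantern muscle libraries was at least 10 CPM (the gene's counts scaled to a common library total) and at least 2-fold above the mean of each of the other 13 adult types with 3 or 4 numbered libraries, after adding 0.5 CPM to both. At least 3 of the 4 lantern libraries also had to lie above every other type's mean. The rule allowed 100 genes and 81 met it, so no gene was left out by that limit. Lantern muscle against the other 13 types is therefore a description here and carries no test.

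Aristotle's lantern is the jaw apparatus of sea urchins, a set of calcareous pieces and teeth moved by muscles that protract, retract and open the jaws. Like other muscles, these work by sliding myosin along actin filaments when calcium is released, and the mRNAs of contractile proteins are usually among the most abundant ones in a muscle. Sea urchins also have muscle fibres at the bases of their spines, in the walls of the tube feet and around parts of the digestive tract, and many of their contractile cells are epithelial cells that line the body cavity.

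All libraries came from wild-type animals and were made from polyA RNA of dissected tissue or spawned eggs. Purchased adults gave axial gland, eggs, esophagus, gut, ovary, testis, interambulacral plates (plates of the body wall), tube foot, radial nerve, radial canal and lantern muscle with 4 libraries each, and mouth, peristomial membrane (the soft skin around the mouth) and rectum with 3. Another 11 libraries were not used to choose the genes. They were coelomic fluid, a green, a red, a white and a mixed-colour spine library, a stage 1 ovary, and gonads of laboratory-raised juveniles at 4.5 months post fertilization (1 ovary, 1 testis and 3 of indeterminate sex), which another provider sequenced. Ages of the adults and the number of animals behind each library were not given in the sources used here, so p-values measure the spread between these libraries only, and that spread may be technical.

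Library totals ran from 13113913 to 59521125 counts, and those of the 4 lantern muscle libraries from 22588594 to 30705323. No pair of libraries held identical counts. The counted table names genes by locus identifiers, with no product names, and the RefSeq gene table paired with it (assembly Lvar_3.0) matched all identifiers but gives no products either. Names of muscle and other cell type markers matched 0 genes, so the tissue label was not checked against markers and no role is given to any gene below. Of the 81 genes, 73 are annotated as protein coding (90.1%, against 87.5% of all genes in the table), 4 as long noncoding RNA, 3 as transfer RNA and 1 as a pseudogene.

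Lantern muscle replicate 4 stood apart from the other 3 lantern libraries. The 81 genes held 19.9%, 10.5% and 15.8% of all counts in replicates 1, 2 and 3, and 1.65% in replicate 4. The 95% Wilson intervals, which cover counting error only, were 19.92% to 19.96%, 10.51% to 10.53%, 15.83% to 15.86% and 1.65% to 1.66%. The share in replicate 4 lay below the lowest interambulacral plate library, with 2.004%. Replicate 4 was not shallow, with 28660000 counts, and it had 15229 genes at 1 CPM or more against 15309 to 15631 in the others. Across 18778 genes its Spearman coefficients with replicates 1 to 3 were 0.881 to 0.887, while those 3 libraries gave 0.914 to 0.930 with each other. Such coefficients run across genes, which do not vary independently, and only describe these libraries. Of the other 13 types, the radial canal was nearest to each of the 4 lantern libraries, with 0.865 for replicate 4 and 0.873 to 0.909 for the others. In these bulk libraries, fewer cells of a type and less RNA per cell cannot be told apart, and the part of either in the position of replicate 4 was not tested.

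**Figure D1:**
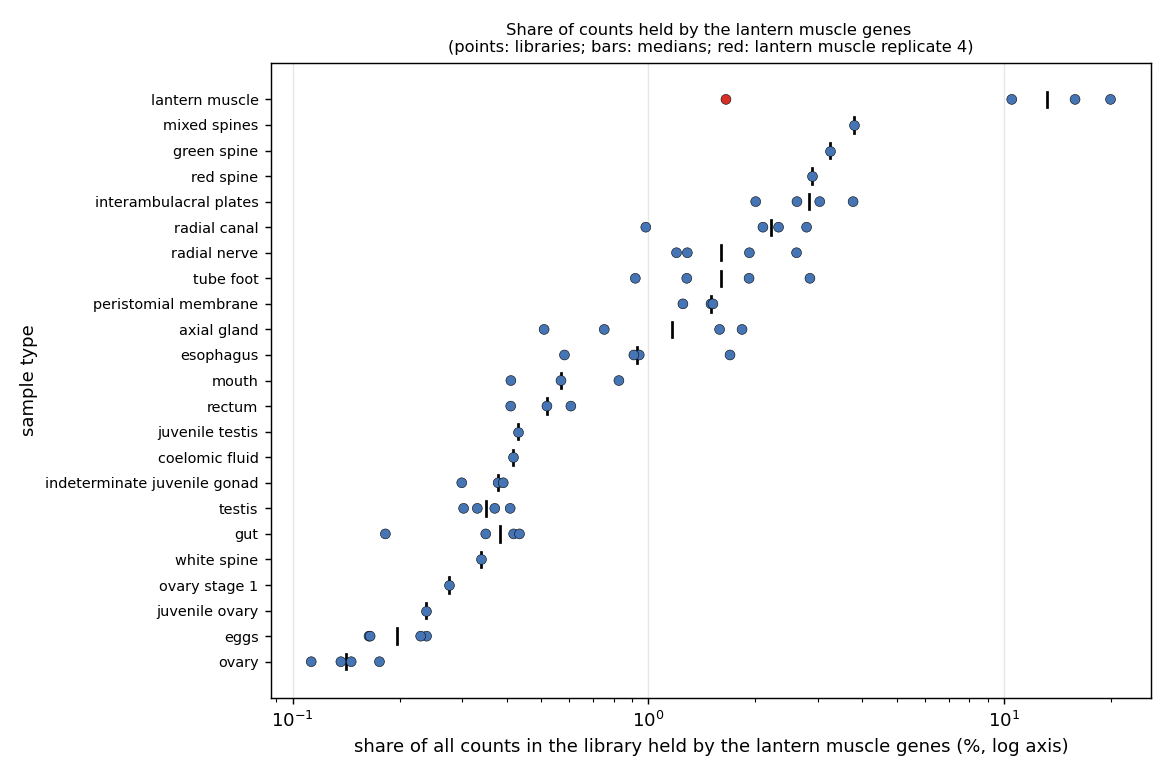
Share of all counts held by the 81 lantern muscle genes in each of the 64 libraries (horizontal log axis, percent), by sample type, with points for libraries, bars for medians and replicate 4 of lantern muscle in red. Lantern muscle replicates 1 to 3 lie at 10.5% to 19.9%, all above every other library, while replicate 4 lies at 1.65% among the radial canal, nerve and tube foot libraries.

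By their position in the lantern libraries the genes fell into 3 sets, which were defined after the values had been seen. In 53 genes replicate 4 was the library that did not exceed every other type's mean. In 19 genes all 4 libraries did, and in 9 genes replicate 1, 2 or 3 did not. Replicate 4 was the lowest of the 4 libraries in 60 genes and the highest in 13. It lay at least 4-fold below the mean of replicates 1 to 3 in 55 genes, at least 10-fold below it in 37, and at least 4-fold above it in 7. The rule let a single lantern library lie low but required 3 above every other type's mean. These counts are therefore partly set by the choice of the genes, and the same counts over all genes were not made.

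**Figure D2:**
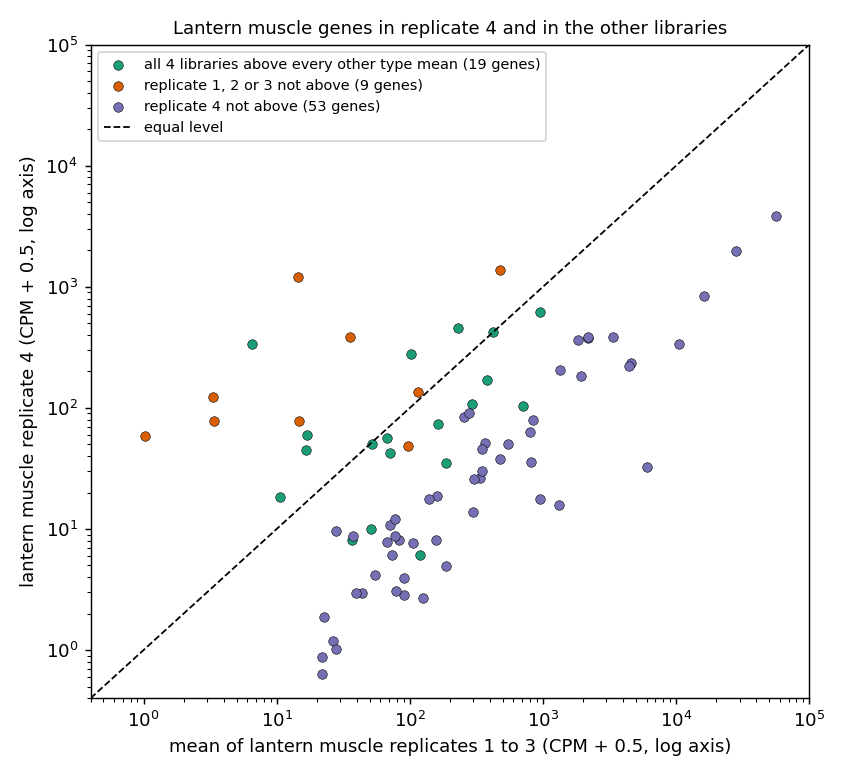
Level of each of the 81 genes in lantern muscle replicate 4 (vertical) against the mean of replicates 1 to 3 (horizontal), both as CPM + 0.5 on log axes, with colours for the 3 sets. The 53 genes whose replicate 4 value did not exceed every other type's mean all lie under the dashed line of equal level, by 2.90-fold to 186-fold, and 7 genes of the other sets lie at least 4-fold above it.

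The most abundant genes all belonged to the set of 53. A mean of at least 1000 CPM was reached by 14 genes, and in all 14 replicate 4 did not exceed the next type's mean. CPM is not adjusted for gene length, so the order below is one of reads and not of molecules. LOC121424881 had 71112, 41145, 57461 and 3832 CPM in lantern replicates 1 to 4. Its mean was 43387 ± 29077 CPM (SD, n = 4), and 56573 ± 15003 over replicates 1 to 3, against 11308 CPM on average in interambulacral plates, the next type. LOC121415027 had 37824, 17705, 29475 and 1959 CPM in the same order. LOC446191 had 22005, 11168, 15611 and 835 CPM. These 3 genes held 64.7% of the summed lantern mean of all 81, and each was lowest in replicate 4 by a wide margin, with no overlap between replicate 4 and the others. LOC121425126 followed with 14386, 6158, 10871 and 339 CPM.

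LOC121414041 had the highest fold of the mean of replicates 1 to 3 over replicate 4. As in the rule, folds between CPM levels were taken after adding 0.5 CPM to both. It had 8816, 3400 and 5994 CPM in replicates 1 to 3 and 32.1 CPM in replicate 4, a 186-fold difference. Its next type, the interambulacral plates, had 103 CPM on average, so the ratio of lantern muscle to the next type was 44.2 with replicate 4 and 58.8 without it. LOC121413829 behaved likewise with 1364, 961, 1663 and 15.4 CPM, and LOC121431442 with 1233, 527, 1110 and 17.03 CPM. Both were at least 50-fold lower in replicate 4 than in the mean of the others (83.9-fold and 54.6-fold). LOC121413793, with 144, 114, 116 and 2.20 CPM, was the only one of the 12 genes with the highest ratios whose next type was eggs (7.77 CPM on average).

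The next most abundant members were less extreme in replicate 4 than LOC121414041. LOC121432059 had 5266, 3161, 5220 and 233 CPM and LOC121424948 had 5293, 3015, 5071 and 220 CPM in replicates 1 to 4. For LOC121418263 the values were 3004, 2476, 4664 and 385 CPM, for LOC121418919 they were 3265, 1016, 2259 and 388, and for LOC121432071 they were 3628, 1174, 1705 and 376. In each of these 5 genes replicate 4 was again the lowest. It lay below the mean of replicates 1 to 3 by 5.61-fold for LOC121418919 to 20.2-fold for LOC121424948. Mitochondrial transfer RNA rows were also lowest in replicate 4, at lower levels. DR311_mgt19 had 366, 388, 1638 and 62.5 CPM, and DR311_mgt02 had 33.9, 36.6, 45.4 and 2.48. Replicate 4 also had the lowest share of counts in all mitochondrial RNA rows together, 0.538% against 1.81% to 3.10% in replicates 1 to 3, and its part in the values of these transfer RNA rows was not tested.

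A smaller number of genes were high in replicate 4 instead. LOC121414932 had the highest ratio of all members (130), with 13.99, 0.716, 3.24 and 339 CPM in replicates 1 to 4 and 0.193 CPM on average in testis, its next type. LOC121405990 had 29.3, 3.26, 9.49 and 1200 CPM. LOC121414961 had 6.73, 0.163, 1.62 and 124 CPM, LOC121409566 had 7.17, 0, 1.54 and 76.9, and LOC121426534 had 0.531, 0.0651, 1.00 and 57.6. Each of these 5 genes owed its place to replicate 4, and none of them met the rule when that library was left out. LOC121406123 was of the same kind, with 35.4, 19.0, 50.2 and 383 CPM. The requirement of 3 libraries kept further genes of this kind out. It excluded 75 genes that met the level and the 2-fold ratio, and 67 of those 75 were highest in replicate 4. LOC121405931, for example, had 119, 15.0, 39.6 and 3968 CPM.

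**Figure D3:**
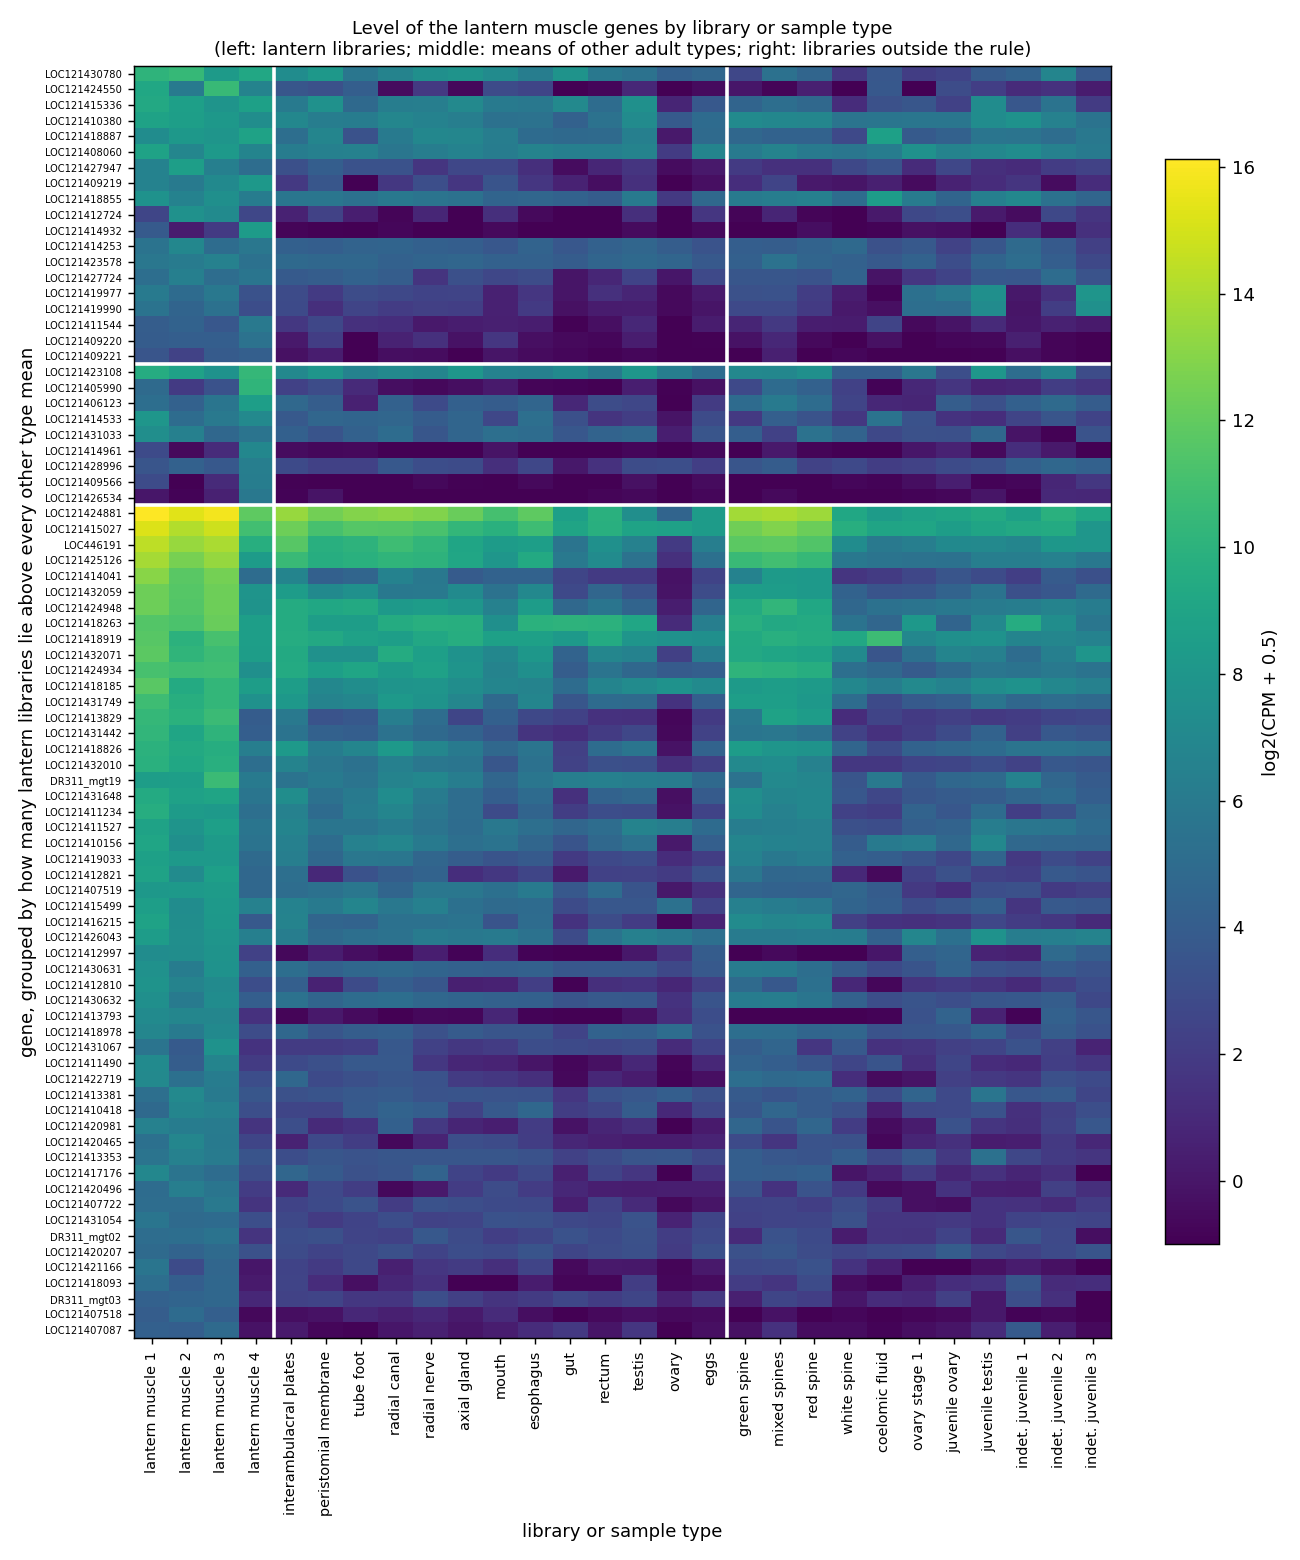
Level of the 81 genes as log2(CPM + 0.5), with rows grouped by set (from the top, the 19, the 9 and the 53 genes) and sorted by lantern mean within a set. Columns show the 4 lantern libraries, the means of the 13 other adult types and the 11 libraries that the rule did not use. The lowest block is bright in lantern replicates 1 to 3 and, at its top, in plates and coloured spines, and darker in replicate 4, gut, ovary, eggs and the white spine.

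The strictest separation, library by library, was found in few genes. In 7 genes all 4 lantern libraries exceeded each single library of the other 13 types, and without replicate 4 this held for 56. The rule had chosen the genes by these same values, so part of this separation is built in. How many of all genes were separated in this way was not counted. LOC121424550 was the most abundant of the 7, with 580, 63.8, 1462 and 102 CPM against at most 32.2 CPM in any library of another adult type. LOC121412724, a long noncoding RNA, had 5.40, 203, 148 and 5.65 CPM, and its separation was narrow, since the highest other library had 4.95 CPM. LOC121409219 had 96.1, 67.3, 141 and 281 CPM against at most 17.6 elsewhere. LOC121409221 had 11.02, 4.62, 14.4 and 17.9 CPM, and LOC121409220 had 15.1, 16.6, 16.8 and 44.3. These last 3 genes follow each other directly in the annotation, with peristomial membrane as the next type of all 3, and were highest in replicate 4.

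Neighbouring members were found in 9 pairs with at most 2 genes between them, 8 of them directly adjacent, and 15 genes took part. Such pairs were not counted in other sets of genes, so these are a description and do not show clustering. LOC121424934 and LOC121424948 are adjacent and were both lowest in replicate 4. So were LOC121422719 and LOC446191, LOC121430631 and LOC121430632, LOC121407518 and LOC121407519, and the mitochondrial rows DR311_mgt02 and DR311_mgt03. In these 5 pairs both genes belonged to the set of 53. In the pair LOC121431033 and LOC121431054 the first gene did not. Reads shared by near-identical copies or by overlapping neighbours may have been assigned to either gene, and whether strand was used in counting was not stated, so single values in such pairs are uncertain.

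The rule was also applied without each lantern library. With each lantern library left out of the rule in turn (2 of the remaining 3 libraries then had to exceed every other type's mean), 80, 100, 93 and 100 genes were chosen without replicates 1, 2, 3 and 4, of which 59, 76, 69 and 72 were among the 81 (72.8%, 93.8%, 85.2% and 88.9% of the 81). In all 4 of these choices were 42 of the 81, of which 32 belonged to the set of 53. The left-out library then gives levels that the choice did not use. The other types' means set against them were the same ones that had chosen the genes. The shares of all genes also include genes at any level, however low. Part of the gap between the shares below is therefore built in, and they are a description and not a test. Of the genes chosen without replicate 1, 62.5% were at least 2-fold above every other type's mean in replicate 1, against 0.680% of all genes. For replicates 2 and 3 these shares were 49% against 0.599% and 59.1% against 0.792%. For replicate 4 the share was 10% against 1.30%, and only 19 of the 100 genes lay above every other type's mean there at all. Without the limit of 100, replicates 1 to 3 alone gave 108 genes, which held 72 of the 81. The other 9 were lost, among them 6 already named as high in replicate 4 (LOC121414932, LOC121405990, LOC121414961, LOC121409566, LOC121426534 and LOC121406123), and LOC121423108, LOC121428996 and LOC121418887, which are named because they complete that count.

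Values close to the limits of the rule were as follows. Just inside the 2-fold limit lay DR311_mgt03 with a ratio of 2.05, LOC121418919 with 2.09 and LOC121418826 with 2.10. Just outside it lay LOC121431036 with 1.99, LOC121419796 with 1.97 and LOC121424918 with 1.96. Just above 10 CPM lay LOC121409221 with a mean of 11.99, LOC121426534 with 14.8 and LOC121407087 with 16.1 CPM, and just below it LOC121421703 with 8.62, LOC121421168 with 8.13 and LOC121409569 with 8.04 CPM. By the number of libraries, LOC121406083 (ratio 46.7) and LOC121405931 (14.3) had 2 lantern libraries above every other type's mean and LOC121408538 (14.9) had 1.

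Outside lantern muscle the genes were most often highest in the interambulacral plates, which were the next type for 25 of the 81. Peristomial membrane was the next type for 10, radial canal and testis for 9 each, tube foot for 6, mouth for 5, esophagus and radial nerve for 4 each, eggs for 3, and axial gland, gut and ovary for 2 each. Rectum was the next type for 0. Only 5 of the 81 stayed under 1 CPM in the mean of every other type, and 61 reached 10 CPM in at least one. The summed share of counts was 2.86% ± 0.740 in plates (SD, n = 4), 2.05% ± 0.765 in radial canal (n = 4), 1.76% ± 0.655 in radial nerve (n = 4) and 1.74% ± 0.845 in tube foot (n = 4). These 4 types overlapped library by library. Esophagus had 1.03% ± 0.472 (n = 4), gut 0.346% ± 0.115 (n = 4), eggs 0.199% ± 0.0400 (n = 4) and ovary 0.143% ± 0.0259 (n = 4), and the highest ovary library lay below the lowest gut library. That gut library, replicate 2, had 0.182%. Its 10 highest genes took 46.4% of its counts, against 17.6% to 22.5% in the other gut libraries. Shares were not scaled for this.

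For LOC121424881 the plates had 7561, 11338, 15308 and 11026 CPM. The radial canal had 14152, 2714, 11516 and 7978 CPM, the radial nerve 4378, 10560, 11778 and 3829, and the tube foot 7919, 4592, 2978 and 16499. These types overlapped and every one of their libraries but those with 2714, 2978 and 3829 CPM lay above lantern replicate 4. Gut libraries had 244 to 540 CPM, and the ovary mean was 22.3 ± 40.6 CPM (SD, n = 4).

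The other tissues were compared with each other in 1 fit of 49 libraries that left all lantern muscle libraries out. The rule had used these types' means only as ceilings. The test was edgeR's quasi-likelihood test over 23301 genes. A call needed a log2 fold change of at least 1 in size and an adjusted p (Benjamini-Hochberg) under 0.05. Of the 81 genes, 80 passed the filter on low counts and LOC121426534 did not.

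The radial canal, a water vessel that runs along the inside of each ambulacrum, was first set against the average of the other 12 types. Of the 80 genes, 33 were called higher in radial canal (41.3%), where 13.1% of all tested genes were called higher, and 2 were called lower, against a background of 5.46%. The median log2 fold change was 1.15 for the 80 genes and 0.04 for all tested genes. Without the adult ovary in the fit, 25 were called higher and 2 lower, and calls over all genes were not counted there. A call against this average does not make radial canal the highest of these types, which it was for 9 of the 81 genes. LOC121424948 was called higher (1.54 ± 0.50, edgeR adjusted p = 0.0227) with a mean of 297 CPM in radial canal. Its means were 739 CPM in plates and 659 CPM in tube foot. The fit averages the other 12 types on the log scale, whereas the averages beside it below are means of CPM, which a type with a high level raises more. By means of CPM, 1 of the 33 genes was not higher in radial canal, LOC121409219 with 2.96 CPM against 3.53 (log2 fold change 1.49 ± 0.52 (SE), edgeR adjusted p = 0.0358), and it is named because it completes that count. LOC121420981 had 48.1, 7.28, 5.04 and 13.7 CPM in the 4 radial canal libraries, against 2.08 CPM on average over the other 12 types (log2 fold change 4.09 ± 0.49 (SE), edgeR adjusted p = 2.32e-08). LOC121413829 had 255, 24.5, 12.5 and 32.7 CPM against 13.4 on average (3.88 ± 0.48, edgeR adjusted p = 3.85e-08). LOC121411490 had 24.8, 8.45, 9.48 and 10.7 CPM against 3.12 (3.41 ± 0.54, edgeR adjusted p = 5.97e-06). In all 3 genes radial canal replicate 1 was the highest library. The 2 lower genes, LOC121420496 and the pseudogene LOC121420465, were at or under 0.345 CPM in every radial canal library, against averages of 2.64 and 3.01 CPM (log2 fold changes of -3.60 ± 0.97 and -3.81 ± 1.10, edgeR adjusted p = 0.00542 and 0.0100).

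No such difference was called between the radial canal and its neighbour, the radial nerve. The edgeR test called 0 of the 80 genes in either direction, where 2.09% of all genes were called higher in radial canal and 3.57% lower. The median log2 fold change was 0.02, against -0.03 for all genes. At an unadjusted p under 0.05 there were 3 higher and 11 lower genes. Of all 23301 genes, 5459 had such a p in either direction. The DESeq2 Wald test called 1 higher and 6 lower, and its calls over all genes were not counted. Without radial nerve replicate 1, edgeR called 3 lower. A count of 0 does not show that the levels were equal.

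In the digestive tract the esophagus, which passes through the lantern, was set against the gut. Of the 80 genes, 25 were called higher in esophagus (31.3%, against 6.62% of all genes), and 0 were called lower (background 4.61%). An unadjusted p under 0.05 was found for 38 higher and 3 lower genes, and for 6060 of all 23301 genes in either direction. DESeq2 called 34 higher and 2 lower. Calls over all genes were not counted with DESeq2 or in the fits with other libraries at the end of this paragraph. The median log2 fold change was 1.48, and 0.13 for all genes. LOC121424550 had 0, 0.946, 19.5 and 1.59 CPM in the 4 esophagus libraries and 0 counts in all gut libraries, so it was at least 43.6-fold higher, taking 3 counts in the shallowest gut library as the floor. Esophagus replicate 3 set that bound, which was 6.70-fold without it. LOC121412810 had 0.0443, 1.20, 4.65 and 9.86 CPM in esophagus against at most 0.0780 in gut (log2 fold change 6.21 ± 1.17 (SE), edgeR adjusted p = 5.69e-04). LOC121421166 had 7.13, 3.14, 2.44 and 8.30 CPM against at most 0.444, with no overlap between the groups (4.13 ± 1.15, edgeR adjusted p = 0.0156). LOC121424881 had 1137, 3709, 7044 and 3021 CPM in esophagus, all above the gut libraries, but was not called (2.42 ± 1.08, edgeR adjusted p = 0.141). The count of 25 was 13 without esophagus replicate 3, 15 without gut replicate 1, 13 without gut replicate 2, and 12 in a fit of these 8 libraries alone.

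Tube feet and peristomial membrane were each set against the interambulacral plates. In tube foot 2 of the 80 genes were called lower (2.50%, against 0.712% of all genes) and 0 higher (background 0.408%). The 2 genes were LOC121406123, with 0.706, 0.461, 2.55 and 0.149 CPM in tube foot and 18.7, 35.5, 22.7 and 29.2 in plates (log2 fold change -4.76 ± 1.15 (SE), edgeR adjusted p = 0.0268), and LOC121409219, with 0.0883, 0, 0 and 0 CPM against 3.22, 3.16, 4.15 and 2.09 (-6.79 ± 1.24, edgeR adjusted p = 0.00195). Both were separated without overlap. Only 1 gene was called when tube foot replicate 1, 2 or 4, or plate replicate 2 or 4, was left out, and in a fit of the 2 types alone 11 were lower and 1 higher. At an unadjusted p under 0.05 there were 18 lower and 0 higher genes, and 2977 of all 23301 genes in either direction. DESeq2 called 4 lower and 0 higher. In peristomial membrane edgeR called 0 of the 80 genes in either direction, with a background of 0.0300% in each. An unadjusted p under 0.05 was found for 4 higher and 14 lower genes, and for 2078 of all 23301 genes in either direction. DESeq2 called 0 higher and 5 lower, and a fit of these types alone called 5 and 9. For tube foot and peristomial membrane alike, calls over all genes were not counted in these other fits. The median log2 fold changes against plates were -0.46 for tube foot and -0.44 for peristomial membrane, and those of all genes 0.04 and -0.06.

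**Figure D4:**
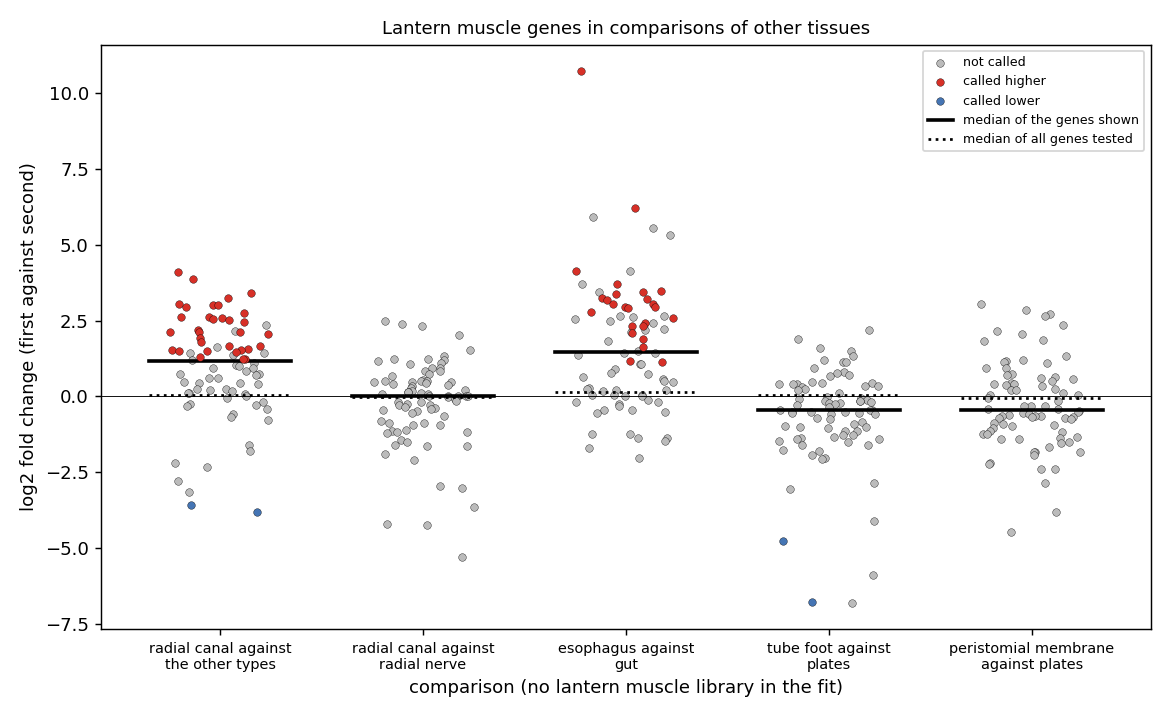
Log2 fold changes of the 80 tested genes in the 5 comparisons of other tissues (edgeR), with genes called higher in red, called lower in blue and the rest in grey. Solid bars mark the median of the 80 genes and dotted bars that of all tested genes. The solid bars stand at 1.15 for radial canal against the other types and 1.48 for esophagus against gut, clear of the dotted ones, and at 0.02 for radial canal against radial nerve.

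The spine libraries, which the rule had not used, separated by colour. Lantern muscle genes held 3.25% of counts in the green spine (95% Wilson interval 3.24% to 3.26%), 3.78% in the mixed spines (3.77% to 3.78%), 2.88% in the red spine (2.87% to 2.88%) and 0.338% in the white spine (0.335% to 0.341%). The green and the red spine lay within the range of the plates (2.004% to 3.77%), the mixed spines just above it, and the white spine lay among gut and testis libraries. There was 1 library of each kind, so no test was made and colour cannot be told apart from the library. Of the 81 genes, 27 were at least 4-fold higher in all 3 coloured spine libraries than in the white one, and 0 were at least 4-fold lower. Among the 18957 genes that reached 1 CPM in a spine, 1.49% were 4-fold higher and 1.02% 4-fold lower in the same sense. The median log2 ratio of the middle coloured library to the white one was 1.63 for the 81 genes and -0.21 for those 18957. Only 72 of the 81 reached 1 CPM in a spine, so the 2 sets were not filtered alike. Ratios of the remaining genes depend largely on the 0.5 CPM added.

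LOC121424881 had 13950 CPM in the green, 15792 in the mixed and 12284 in the red spines, against 582 in the white. LOC121415027 had 5503, 7601 and 5024 CPM against 867, and LOC446191 had 3648, 3698 and 2859 against 158. LOC121414041 had 97.6, 324 and 307 CPM against 2.63, the widest gap of the 81 when each gene is judged by its lowest coloured library (31.4-fold after adding 0.5 CPM to both). LOC121413829 had 60.2, 475 and 348 CPM against 1.71. In all of these genes the white spine lay below each coloured library. The set of 53, the largest part of the 81, supplied 24 of the 27 genes, the set of 19 gave 1 and the set of 9 gave 2. These sets were defined from levels in the other types, plates among them, so the counts do not test a link to replicate 4. By contrast, LOC121426043 had 69.1, 68.3 and 74.7 CPM in the coloured libraries and 74.1 in the white, and is named after its values were seen as an example of no separation.

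**Figure D5:**
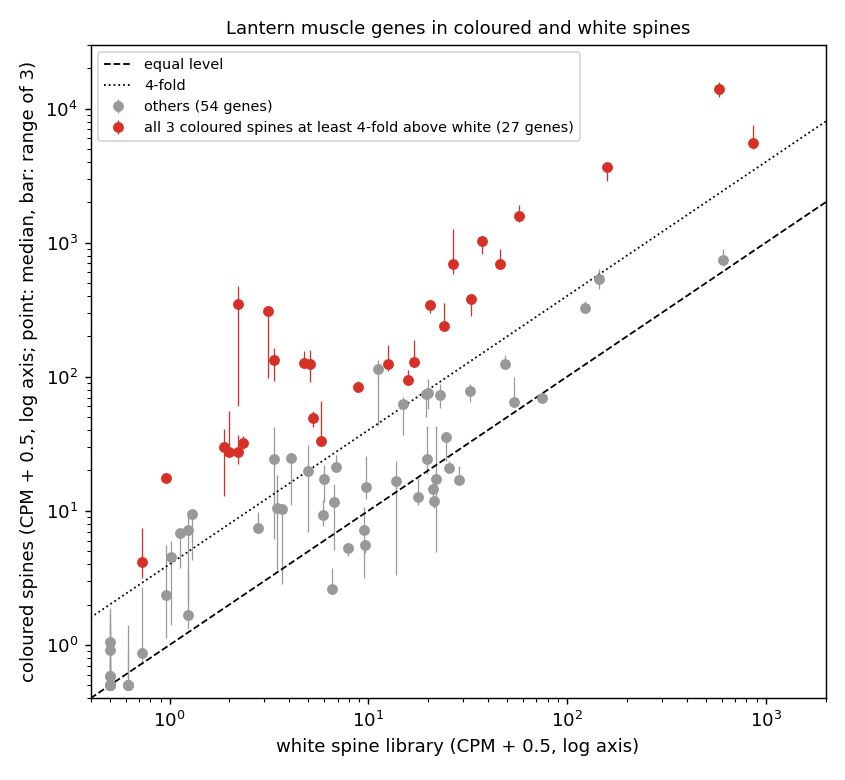
Level of the 81 genes in the 3 coloured spine libraries (vertical, median as points and range as bars) against the white spine library (horizontal), as CPM + 0.5 on log axes, with the 27 genes at least 4-fold higher in all 3 coloured libraries in red. Grey points are the other genes. Some have a median above the 4-fold line (DR311_mgt19, 113 against 10.7 CPM) and some lie below the line of equal level. No gene has all 3 coloured libraries 4-fold below white.

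The genes called in these tissues overlapped in part with those of the coloured spines. Of the genes called higher in radial canal, 21 were among those of the spines, which is 63.6% of the 33 and 77.8% of the 27. Of all tested genes at 1 CPM or more in a spine, 2403 were called higher in radial canal and 282 were 4-fold higher in the coloured spines, and the 101 in both lists were 4.20% of the first and 35.8% of the second. Of the genes called higher in esophagus, 15 were, which is 60.0% of the 25 and 55.6% of the 27. For all genes the 45 in both lists were 3.18% of the 1417 called higher in esophagus and 16.0% of the 282. Among the members as a whole, the spine genes were 27 of 81, those called higher in radial canal 33 of 80 and those called higher in esophagus 25 of 80. The radial canal and esophagus comparisons share libraries, so their lists are not compared with each other.

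In the remaining libraries outside the rule the genes together held a low share of counts. Their share of counts was 0.416% in coelomic fluid, 0.275% in the stage 1 ovary, 0.237% in the juvenile ovary, 0.430% in the juvenile testis and 0.299% to 0.391% in the 3 indeterminate juvenile gonads, all below the lowest radial canal library (0.984%). Provider and age cannot be told apart for the juvenile libraries. Single genes were not all low there. From 27 (coelomic fluid) to 42 (indeterminate replicate 2) of the 81 reached 10 CPM in these libraries, against 48 in the mean of plates. In 61 of the 81 the highest of the 11 libraries, spines included, exceeded the next type's mean, but that sets a highest single library against a mean. LOC121418919 had 1668 CPM in coelomic fluid, near its lantern mean of 1732. Only 4 of the 81 genes exceeded their lantern mean in any of the 11 libraries. LOC121419990 had 189 CPM in indeterminate replicate 3 and 152 in the juvenile testis, against 0.475 and 3.81 in the other indeterminate libraries and a lantern mean of 29.2. LOC121419977 followed the same course, with 246 and 181 CPM against 0.594 and 2.14, and a lantern mean of 40.1. LOC121418855 had 352 CPM in coelomic fluid against a lantern mean of 141. The 4th gene, LOC121418887, had 418 CPM in coelomic fluid and 12.7, 151, 32.6 and 266 in the axial gland libraries, against a lantern mean of 287, and is named because it completes the count.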

How the data were processed

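The deposited table holds raw counts of reads per gene, 1 column for each of 64 polyA libraries. The submitters' processing notes name STAR, featureCounts and DESeq2 with no version, and no genome build was stated. Of the lines, 3 with broken or displaced fields were left out, and 0 columns were unmapped. CPM is the count divided by the column total, without length or composition scaling. Members were chosen as stated above. The members, lists and comparisons were chosen with earlier results of these data known. Genes named are the 12 with the highest ratio, the 10 with the highest lantern mean, those nearest each limit, the 3 strongest calls per direction and test, neighbouring members, the 3 highest relative to lantern muscle outside the rule, and those said to complete a count or to serve as an example.

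Tests used edgeR 4.0.16 (glmQLFit, glmQLFTest, TMM, filterByExpr, with limma 3.58.1 and R 4.3.3) on 49 libraries. The procedure was also run on counts simulated from this fit, for radial canal against radial nerve alone, with results not given here. Standard errors are the size of the fold change over the root of F. Other settings were DESeq2 1.42.0, DESeq2 size factors, no filter, a replicate block, no adult ovary, pairs of types alone, and each replicate left out. Calls in these settings were counted among the members only, so no share over all genes stands beside them. Replicate numbers share nothing stated in the labels. Wilson intervals used statsmodels 0.14.6. No sequences were used here.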

Additional observations from a re-analysis of the deposited data

Results flagged for a closer look

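In 7 genes named above, 1 of the 4 lantern libraries lay far from the others (gap to the nearest library divided by the range above Dixon's 95% critical value for 4 values), and in all 7 it was replicate 4, above the rest. The values of replicate 4 were 1200 CPM for LOC121405990, 383 for LOC121406123, 339 for LOC121414932, 124 for LOC121414961, 76.9 for LOC121409566, 57.6 for LOC121426534 and 44.3 for LOC121409220. The nearest lantern library had 29.3, 50.2, 13.99, 6.73, 7.17, 1.00 and 16.8 CPM in the same order. Of 56 groups of 4 values examined, chance would flag about 1 in 20 had the values been normally distributed and the genes chosen otherwise. That rate does not apply here, because the rule used these same values and 6 of the 7 genes did not meet it without replicate 4. The values were also taken as CPM and not as logs, where a low value stands out less. LOC121414041, with 8816, 3400, 5994 and 32.1 CPM in replicates 1 to 4, was not flagged. The direction of the 7 therefore does not describe the 81 genes, of which 60 were lowest in replicate 4.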

How the results depend on the processing

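The number of genes chosen was 50 at 3-fold and 35 at 4-fold over each other type, and 75 to 89 under the other scaling, pseudocounts and levels tried (0.1 and 2 CPM added, means of 5 and 20 CPM, TMM-scaled CPM), and 80 to 100 with 1 lantern library left out. TMM scaling kept 72 of the 81. In fits of the pair of types alone, esophagus against gut had 12 higher calls, tube foot against plates 1 higher and 11 lower, and peristomial membrane against plates 5 higher and 9 lower. The DESeq2 Wald test gave 4 lower calls for radial canal against the other types, 1 higher and 6 lower against radial nerve, 2 lower for esophagus, 4 lower for tube foot and 5 lower for peristomial membrane. The cause was not tested.

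With single libraries left out, higher calls ranged from 23 to 30 for radial canal (only its own libraries were left out), 13 to 25 for esophagus, and 0 for the other comparisons. Lower calls ranged from 0 to 3 against radial nerve, 0 to 2 for esophagus and 1 to 2 for tube foot, and were 2 for radial canal against the other types and 0 for peristomial membrane. With genes chosen without lantern replicate 4, an alternative added after the data had been seen, there were 41 higher calls of 100 for radial canal and 27 for esophagus, and 1 lower call each for radial canal against radial nerve and for tube foot. The coloured spine count was 31 for those genes, 27 with TMM scaling, 40 at 2-fold (background 5.09%) and 20 at 8-fold (0.528%). Same-numbered libraries of different types gave correlations of their deviations from -0.34 to 0.43 (median 0.0026), so the numbers were not taken as pairs, 18 of 49 libraries were closest to their own number, and the replicate block gave 25 higher calls for esophagus and 29 for radial canal, with the other counts as reported. Of all 154 alternative values, 129 equalled the reported one or stayed within 1.5 times it. Many of these were counts of 0 that stayed 0, so the tally does not measure how stable the larger counts were.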
